A study of Mus musculus with 4 samples.

Results

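Genes of fatty acid synthesis and desaturation were followed in RNA-seq libraries of primary mouse astrocytes from wild-type (WT) mice and from mice labelled Tet1 KO. The group was chosen by name as Acly, Acaca, Fasn, Me1, Elovl6, Scd1, Scd2, Fads1, Fads2 and Srebf1. Of the 25393 genes in the deposited table, 10 carry these names, and each name matched exactly 1 gene. The study removed Tet1, a dioxygenase that oxidises 5-methylcytosine in DNA, and asked what its loss does to astrocytes. The WT group held 2 libraries, labelled ctrl, from untreated C57BL/6 mice. The KO group held 2 libraries from untreated C57BL/6 mice with the genotype tet1-/-. In both groups the cells came from cortex and hippocampus of 2 mice per isolation at postnatal day 1 and grew for about 7 days in a coated flask. They were then shaken at 260 rpm and collected after another 24 h. The KO is described as constitutive, not limited to a cell type, and animals were pooled within an isolation. The study calls its repeats biological and names more of them per group for RNA-seq than the 2 libraries available here. No label says whether the replicates of a group came from separate isolations, and p-values measure only the spread between these libraries.

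Astrocytes synthesise fatty acids and supply lipids to neurons and to the growing membranes of the young brain. ATP-citrate lyase splits citrate into acetyl-CoA, acetyl-CoA carboxylase turns this into malonyl-CoA, and fatty acid synthase builds palmitate from both with NADPH as the reductant. Palmitate is then lengthened by elongases and made unsaturated by desaturases, and the transcription factor SREBP-1c, encoded by Srebf1, raises the transcription of most of these enzymes in response to insulin and oxysterol signals.

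Each deposited value was a count of reads scaled by the size factor of its library, called a normalized count here. Depth was even, with 18749610 and 22673555 reads on genes for WT against 20702980 and 22403163 under the KO label. A count of 3 reads, taken as the limit of detection, was worth 2.70 to 3.21 normalized counts. Every one of the 10 genes lay far above it. The fewest reads of any of them were 313, for Elovl6 in WT replicate 2, where counting error alone is 5.65% of the value. For the other 9 genes, counting error at the lowest count was 0.464% to 2.65%.

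Before the results, the labels were checked. Tet1 had 266 and 121 normalized counts in WT, compared with 173 and 463 in those labelled KO, so the targeted gene was not lower under the KO label (log2 fold change 0.66, standard error 0.65, limma with Benjamini-Hochberg adjustment, adjusted p = 0.691). A count per gene cannot separate transcripts with and without the deleted part. All directions below therefore rest on the label. The astrocyte label was checked against 9 markers, whose summed level was 1490 and 1434 FPKM (fragments per kilobase of gene, scaled to the reads of the library) in WT, 2570 in the first library labelled KO and 380 in the second. Gfap, the intermediate filament of astrocytes, was the most abundant of them with 687 and 765 FPKM in WT against 1871 and 117 in the libraries labelled KO. The sum in the first library labelled KO was carried by Gfap. Of the 9 markers, 5 (Aldh1l1, Slc1a3, Slc1a2, Aqp4 and Sox9) lay below both WT libraries in both libraries labelled KO, 1 (Gja1) lay above and 3 overlapped. Of all genes tested, 25.4% lay below in this way and 22.5% above. The median marker was at -0.26 against the WT mean on the log2 scale in the first library labelled KO and at -1.65 in the second. The second library labelled KO thus stood apart from the other libraries in astrocyte markers, and values without it are given below. Xist, the RNA that coats the silent X chromosome, had 8.54 and 0.92 normalized counts in WT versus 2896 and 13367 with the KO label. The sum of 4 Y-linked genes was 3765 and 1909 normalized counts in WT, 0 in the first library labelled KO and 830 in the second, which thus held transcripts of both kinds. The libraries labelled KO therefore did not hold the same cells. Sex and the KO label cannot be told apart in these 4 libraries.

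Between the labels, Acly, Acaca, Fasn, Me1 and Scd1 had more normalized counts in both libraries labelled KO than in either WT library, although Me1 overlapped in FPKM. Acly was 2.29-fold higher and Scd1 2.20-fold higher by the means of 2 libraries. Scd2, Fads1, Fads2 and Elovl6 overlapped between the groups, and Srebf1 was lower in both libraries labelled KO. Of the 10 genes, 2 had an unadjusted p under 0.05 in limma and were higher (Acly and Scd1), where 4.54% of all 22094 genes tested did so. This count of 2 was 0 without WT replicate 1 or without WT replicate 2, 3 without the first library labelled KO, where Elovl6 was added, and 1 (Scd1) without the second. In the other direction the count was 0 of 10, against 9.18% of all genes. After Benjamini-Hochberg adjustment over all genes, limma called 0 of 10 genes and 0 of 22094, or 0.0%, although 1004 genes were higher and 2028 lower at an unadjusted p under 0.05. edgeR called 0 genes, and DESeq2 called 1088 of 17382 genes with an adjusted p, or 6.26%, with 0 of the 10 among them. In bulk RNA, fewer cells of a type and less RNA per cell cannot be told apart.

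**Figure D1:**
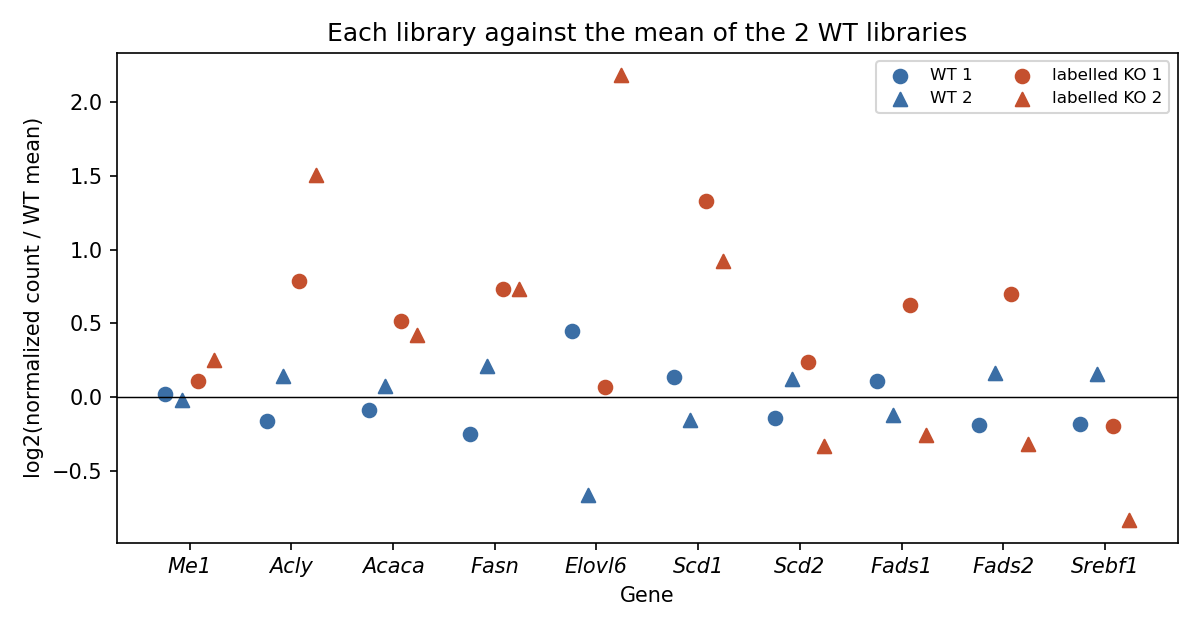
Each of the 10 genes on the x axis has 1 point per library, placed by log2 of its normalized count over the mean of the 2 WT libraries (blue, WT; orange, labelled KO; circle, replicate 1; triangle, replicate 2). Acly, Acaca, Fasn, Scd1 and Me1 have both orange points above both blue ones, Srebf1 has both below, and in Elovl6, Fads1, Fads2 and Scd2 the colours overlap.

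The groups did not overlap for 6 of the 10 genes. The libraries labelled KO lay above WT for 5 of them, against 22.5% of all genes tested, and below for 1, against 25.4%. These counts hold for normalized counts, and among the 5, Me1 overlapped in FPKM. Srebf1, the lower gene, was separated narrowly, with 4531 in the first library labelled KO against 4585 in the nearer WT library (log2 difference -0.017). The median log2 fold change of the 10 genes was 0.34, beside -0.07 over all genes tested. Without the first library labelled KO the median was 0.34, and without the second it was 0.58. The sign was positive for 8 of the 10 genes with all 4 libraries, for 6 without the first library labelled KO and for 9 without the second. For a lone gene, the smallest two-sided p that exact permutation of 2 against 2 libraries allows is 0.333.

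Acly (ENSMUSG00000020917) encodes ATP-citrate lyase, the step that brings acetyl groups from mitochondria to the cytosol, and lies on the minus strand at chr11:100476353-100528000 of GRCm38. Its normalized counts were 2959 and 3650 in WT against 5712 and 9391 under the KO label. Both libraries labelled KO were above WT, the second well above the first. The log2 fold change was 1.16 (standard error 0.36, 95% interval 0.25 to 2.06, unadjusted p = 0.0214, adjusted p = 0.292 in limma). The adjusted p was 0.134 in DESeq2 (log2 fold change 1.19) and 0.331 in edgeR (1.15). The range of its log2 fold change with each library left out in turn was 0.80 to 1.51, and p was under 0.05 in 10 of 14 settings. It was not without WT replicate 1 (0.172), WT replicate 2 (0.110) or the second library labelled KO (0.0564), nor in eBayes without a trend (0.0591).

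Fasn (ENSMUSG00000025153), at chr11:120805846-120824547 on the minus strand, encodes the multi-enzyme that makes palmitate. It had 5197 and 7123 normalized counts in WT, compared with 10215 and 10259 in those labelled KO. The libraries labelled KO lay close together and above both WT libraries, which were further apart. limma gave a log2 fold change of 0.75 (standard error 0.31, 95% interval -0.04 to 1.54, unadjusted p = 0.0582, adjusted p = 0.382).

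The starts of Acly and Fasn are shown because they stand for the entry and the end of palmitate synthesis, both higher under the KO label. The sequences are from RefSeq on GRCm38.p6 and run from 250 bases before to 50 after the start. Capitals mark matches to CCAAT or GGGCGG on either strand, so that ATTGG and CCGCCC are the same letters on the other strand.
Acly, chr11:100527951-100528250, minus strand: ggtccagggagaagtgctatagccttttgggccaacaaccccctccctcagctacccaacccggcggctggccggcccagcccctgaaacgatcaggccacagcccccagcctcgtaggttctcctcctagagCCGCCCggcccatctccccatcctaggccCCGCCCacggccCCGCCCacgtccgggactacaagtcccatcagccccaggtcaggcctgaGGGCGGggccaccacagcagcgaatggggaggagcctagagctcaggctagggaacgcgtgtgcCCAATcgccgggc
Fasn, chr11:120824498-120824797, minus strand: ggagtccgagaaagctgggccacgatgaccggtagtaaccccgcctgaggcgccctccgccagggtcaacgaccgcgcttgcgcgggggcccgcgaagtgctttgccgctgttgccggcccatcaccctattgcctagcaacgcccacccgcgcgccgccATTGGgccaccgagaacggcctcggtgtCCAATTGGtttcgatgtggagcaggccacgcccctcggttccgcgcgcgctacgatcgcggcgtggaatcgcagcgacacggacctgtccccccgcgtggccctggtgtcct
The Acly window held 4 GGGCGG matches and 1 CCAAT match, and the Fasn window held 3 CCAAT matches and 0 GGGCGG matches. In the Fasn window a CCAAT and an ATTGG share letters, and each was counted. Windows were found for 7 of the 10 genes, with 10 windows in all, and none was found for Scd1, Scd2 and Fads1. CCAAT stood in 5 of these 10 windows (4 genes) beside 37.4% of all 32851 windows, and GGGCGG also in 5 (4 genes) beside 35.7%. Searches of both strands for TCACNCCAC, the letters of a sterol response element, matched 0 of 10 windows and 1.24% of all windows. CACGTG, an E-box, matched 0 of 10 and 7.15% of all. These letters describe the windows and say nothing of binding.

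Acaca (ENSMUSG00000020532) encodes acetyl-CoA carboxylase 1, which makes the malonyl-CoA used in synthesis, and lies on the plus strand at chr11:84129672-84401651. Normalized counts were 1519 and 1702 in WT versus 2308 and 2154 with the KO label. As for Fasn, both libraries labelled KO were above WT, by a smaller step. The estimate in limma was 0.47 (standard error 0.27, 95% interval -0.22 to 1.16, unadjusted p = 0.141, adjusted p = 0.500). Of the 50-base words in Acaca transcripts, 30.4% also occur in another gene, mainly Gm5182, a processed pseudogene, so that part of its reads is uncertain. Gm5182, looked up after its values were seen, had 246 and 229 normalized counts in WT against 426 and 410 under the KO label. Its counts were well below those of Acaca in each library. Acacb, which encodes the isoform at the mitochondrial surface that restrains fatty acid oxidation, had 487 and 762 normalized counts in WT, compared with 74.9 and 18.9 in those labelled KO (log2 fold change -3.97, unadjusted p = 0.00222, adjusted p = 0.161 in limma). The carboxylase for synthesis and the one tied to oxidation thus had estimates of opposite sign, and their difference was not tested.

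Me1 (ENSMUSG00000032418) encodes the cytosolic malic enzyme, a source of NADPH, at chr9:86581371-86695953 on the minus strand. Its 3112 and 3022 normalized counts in WT stood beside 3315 and 3651 in the libraries labelled KO. The step between the groups was small. In FPKM, which scales to the reads on genes instead of the size factor, they overlapped, with 40.4 and 37.7 in WT versus 38.9 and 47.0 with the KO label. The separation of Me1 thus depended on the scaling of the libraries. A log2 fold change of 0.18 (standard error 0.27, 95% interval -0.50 to 0.86, adjusted p = 0.801 in limma) was found. Me1 shares 22.9% of its 50-base words with another gene, mainly the processed pseudogene Gm7049. That pseudogene, also looked up after its values were seen, had 4.27 and 6.44 normalized counts in WT against 34.3 and 80.2 under the KO label.

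Other genes that supply acetyl-CoA, malonyl-CoA and NADPH lay in both directions. Of 9 in this list, 2 were higher and 2 lower at an unadjusted p under 0.05 in limma, where 4.54% and 9.18% of all genes were, as for each list below. The median log2 fold change was -0.06, and it was -0.28 without the first library labelled KO and 0.18 without the second. Me2, the mitochondrial malic enzyme, had 799 and 946 normalized counts in WT, compared with 2906 and 1577 in those labelled KO (1.30, unadjusted p = 0.0181, adjusted p = 0.280). Idh1, the cytosolic isocitrate dehydrogenase that also yields NADPH, was at 0.94 (unadjusted p = 0.0379, adjusted p = 0.345). The lower genes were Acacb and G6pdx, and DESeq2 called Acacb alone of the 9 (adjusted p = 2.83e-05). Over all genes with an adjusted p, DESeq2 called 6.26%, the share to set beside its calls in each list below. G6pdx, the first enzyme of the pentose phosphate path, had 4822 and 4203 normalized counts in WT versus 1935 and 3104 with the KO label (-0.88, unadjusted p = 0.0477, adjusted p = 0.361). In FPKM it was the most abundant of the list in both WT libraries, but in neither library labelled KO.

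Elovl6 (ENSMUSG00000041220) encodes the elongase that takes palmitate to stearate and lies on the plus strand at chr3:129532355-129638495. It had 623 and 288 normalized counts in WT against 477 and 2063 under the KO label. The second library labelled KO was above the other 3 libraries, while the first lay between the WT libraries. Its estimate was wide, at 1.23 (standard error 0.78, 95% interval -0.74 to 3.19, adjusted p = 0.538 in limma). Without the second library labelled KO the log2 fold change was 0.17, and without the first it was 2.28. Elovl6 shares 3.98% of its 50-base words with another gene, mainly Gm11295, and overlaps the antisense gene Gm35986.

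Scd1 (ENSMUSG00000037071) encodes stearoyl-CoA desaturase 1, which puts the first double bond into stearate and palmitate, and lies on the minus strand at chr19:44394451-44407709. Its normalized counts were 6374 and 5200 in WT, compared with 14532 and 10986 in those labelled KO. Both libraries labelled KO stood well clear of WT. The log2 fold change was 1.13 (standard error 0.32, 95% interval 0.33 to 1.94, unadjusted p = 0.0147, adjusted p = 0.264 in limma). An adjusted p of 0.104 was given by DESeq2 and of 0.342 by edgeR. Leaving out each library in turn gave 0.93 to 1.34, and p was under 0.05 in 12 of 14 settings. The exceptions were limma without WT replicate 1 (0.0790) and without WT replicate 2 (0.143).

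Scd2 (ENSMUSG00000025203), the neighbouring desaturase gene that predominates in brain, lies on the plus strand at chr19:44293676-44306864. It had 49551 and 59521 normalized counts in WT versus 64295 and 43467 with the KO label. The libraries labelled KO enclosed the WT libraries, 1 above and 1 below. limma gave -0.04 (standard error 0.41, 95% interval -1.06 to 0.99, adjusted p = 0.979), an interval that spans about a doubling either way. The sign of this estimate was positive without WT replicate 2 (0.09) and without the second library labelled KO (0.24).

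Scd1 and Scd2 are 89.6% identical over their coding sequences, but only 4.56% of the 50-base words of Scd1 transcripts and 3.97% of those of Scd2 occur in another gene, mainly each other. Per length, Scd1 made up 12.7% and 8.97% of the summed FPKM of the pair in WT against 20.3% and 22.2% under the KO label. The shares did not overlap, and an exact permutation test gives the smallest possible two-sided p of 0.333. Scd3, another isoform, had 18.1 and 18.4 normalized counts in WT, compared with 5.35 and 2.70 in those labelled KO (-1.99, unadjusted p = 0.0372, adjusted p = 0.345), at or near the limit of detection in the latter. The members of the Scd family were thus spread from a higher to a lower estimate.

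Fads1 (ENSMUSG00000010663) encodes the delta-5 desaturase of long polyunsaturated fatty acids and lies on the plus strand at chr19:10182888-10196870. Its normalized counts were 7953 and 6755 in WT versus 11349 and 6161 with the KO label. The first library labelled KO was the highest of all and the second the lowest. The log2 fold change was 0.19 (standard error 0.39, 95% interval -0.80 to 1.18, adjusted p = 0.859 in limma) and turned to -0.01 after quantile normalization and to -0.25 without the first library labelled KO.

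Fads2 (ENSMUSG00000024665) encodes the delta-6 desaturase, the first step of the same path, and lies on the minus strand at chr19:10064164-10101503. It had 8936 and 11408 normalized counts in WT against 16519 and 8179 under the KO label. As with Fads1, the libraries labelled KO were the highest and the lowest of the 4. An estimate of 0.20 (standard error 0.44, 95% interval -0.89 to 1.30, adjusted p = 0.865 in limma) resulted, which was -0.30 without the first library labelled KO. Fads1 and Fads2 are 66.4% identical over their coding sequences and share almost no 50-base words with other genes, at most 0.152%.

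Among 16 other genes of elongation and desaturation tested, 3 were higher and 2 lower at an unadjusted p under 0.05 in limma, beside 4.54% and 9.18% of all genes. Their median log2 fold change was -0.07, which became 0.10 without WT replicate 1, -0.15 without WT replicate 2, -0.21 without the first library labelled KO and 0.24 without the second. Hacd1, a dehydratase of the elongation cycle, had 154 and 191 normalized counts in WT, compared with 604 and 628 in those labelled KO (1.84, unadjusted p = 0.00222, adjusted p = 0.161). Elovl1, an elongase of very long saturated chains, was at 0.91, and Elovl2, an elongase of polyunsaturated chains, at 1.62 from low counts. The lower genes were Scd3 and Fads6, a gene of the desaturase family, which had 965 and 510 normalized counts in WT versus 230 and 66.7 with the KO label (-2.49, unadjusted p = 0.0135, adjusted p = 0.256). DESeq2 called 1 gene of the list higher, Hacd1 (adjusted p = 0.00203), and 1 lower, Fads6 (adjusted p = 0.0259).

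Srebf1 (ENSMUSG00000020538), on the minus strand at chr11:60199089-60222581, encodes SREBP-1a and SREBP-1c, which a count per gene does not separate. It had 4585 and 5783 normalized counts in WT against 4531 and 2911 under the KO label. The first library labelled KO was just under the lower WT library, and the second clearly under both. The log2 fold change was -0.50 (standard error 0.35, 95% interval -1.38 to 0.37, unadjusted p = 0.203, adjusted p = 0.572 in limma), -0.18 without the second library labelled KO and -0.82 without the first. Its exons overlap those of Rai1 on the other strand, and whether the counting used strand is not given in the sources used here. Rai1, also looked up after its values were seen, had 2129 and 2508 normalized counts in WT, compared with 1765 and 2045 in those labelled KO.

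**Figure D2:**
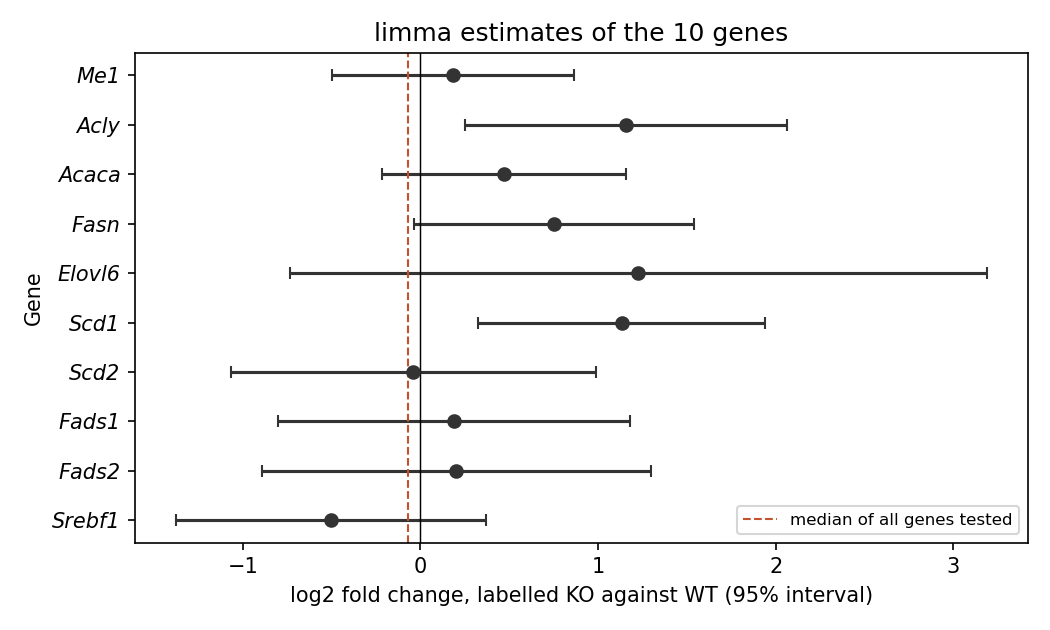
The x axis gives the limma log2 fold change of the libraries labelled KO against WT for each of the 10 genes on the y axis, with bars for the 95% interval and a dashed line for the median of all genes tested. The intervals of Acly and Scd1 lie above 0, that of Fasn reaches -0.04, and that of Elovl6 is the widest.

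A list of 16 genes that control these enzymes held SREBP-2 and the SREBP processing genes, the oxysterol receptors LXR and their partners, the carbohydrate-responsive factor ChREBP and its partner, lipogenic cofactors and subunits of the kinase AMPK. Of them 2 were higher and 2 lower at an unadjusted p under 0.05 in limma, where 4.54% and 9.18% of all genes were, and the median was 0.01, with -0.17 to 0.11 when a library was left out. Both libraries labelled KO were above WT for 4 of the 16, beside 22.5% of all genes tested, and below for 3, beside 25.4%. Srebf2, which encodes the sterol regulator SREBP-2, had 4707 and 4945 normalized counts in WT against 8566 and 8736 under the KO label (0.84, unadjusted p = 0.0262, adjusted p = 0.312). Insig1, which holds SREBPs in the endoplasmic reticulum and is itself an SREBP target, was at 1.80 (unadjusted p = 0.00723, adjusted p = 0.218) and was the only gene of the 16 that DESeq2 called (adjusted p = 0.0296). The lower genes were Nr1h3, encoding LXR-alpha, at -1.58 (unadjusted p = 0.0399, adjusted p = 0.350) and its partner Rxra at -1.03 (unadjusted p = 0.0150, adjusted p = 0.265). Srebf1 and Srebf2 thus had estimates of opposite sign, and that difference was not tested.

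Cholesterol synthesis is the other path under SREBP control. All 20 of its genes listed were above WT in both libraries labelled KO, as were 22.5% of all genes, and 19 were higher at an unadjusted p under 0.05 in limma, as were 4.54% of all genes. With adjustment limma and edgeR called 0 of the 20 and DESeq2 called 14, where it called 6.26% of all genes with an adjusted p. The list had a median log2 fold change of 1.72 beside 0.34 for the 10 fatty acid genes. The median was 1.51 without the second library labelled KO and 2.08 without the first, with 18 of 20 at that threshold in each case. Without WT replicate 1 or WT replicate 2 the counts were 11 and 12, and all 20 estimates stayed positive. Cyp51, lanosterol demethylase, had 373 and 498 normalized counts in WT, compared with 3580 and 5173 in those labelled KO (3.32, unadjusted p = 0.000122, adjusted p = 0.0844), the highest of the list. Ebp, a sterol isomerase, was the lowest at 0.53 (unadjusted p = 0.160). Scd1 and Acly, at 1.13 and 1.16, lay between these values. Fasn at 0.75 was above Ebp alone, and Acaca at 0.47 was under all 20. Summed over the list, cholesterol synthesis genes had 161 and 163 FPKM in WT versus 493 and 672 with the KO label.

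Of 21 genes of fatty acid activation and glycerolipid synthesis, 0 were higher and 3 lower at an unadjusted p under 0.05 (median -0.05, which was 0.02 without the first library labelled KO and -0.21 without the second). These were Agpat2, which acylates lysophosphatidic acid, at -1.78, Acsl6, which activates polyunsaturated fatty acids, at -1.47, and Lpin2, a phosphatidate phosphatase, at -0.80. DESeq2 called Agpat2 alone of the 21 (adjusted p = 0.0113). Of 16 genes of fatty acid oxidation, 0 reached that threshold in either direction in limma (median -0.21, which was -0.64 without the first library labelled KO and 0.15 without the second). Among them Cpt1a, the entry to mitochondria, was at -0.79. Of 11 genes of uptake and binding, 2 were higher and 2 lower (median 0.13, which was -0.39 without the first library labelled KO and -0.25 without the second). Among the higher, Slc27a4, a fatty acid transporter, was at 0.82. Lpl, lipoprotein lipase, was at -2.05, and the scavenger receptor gene Cd36 at -5.64. Cd36 had 155 and 684 normalized counts in WT and 19.8 in the second library labelled KO, and the 1.07 in the first was under the limit of detection, so its fitted value depends on the pseudocount. DESeq2 called 1 gene of uptake and binding higher and 2 lower, Lpl (adjusted p = 0.00171) and Cd36 (adjusted p = 6.46e-05), and 0 genes of oxidation.

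**Figure D3:**
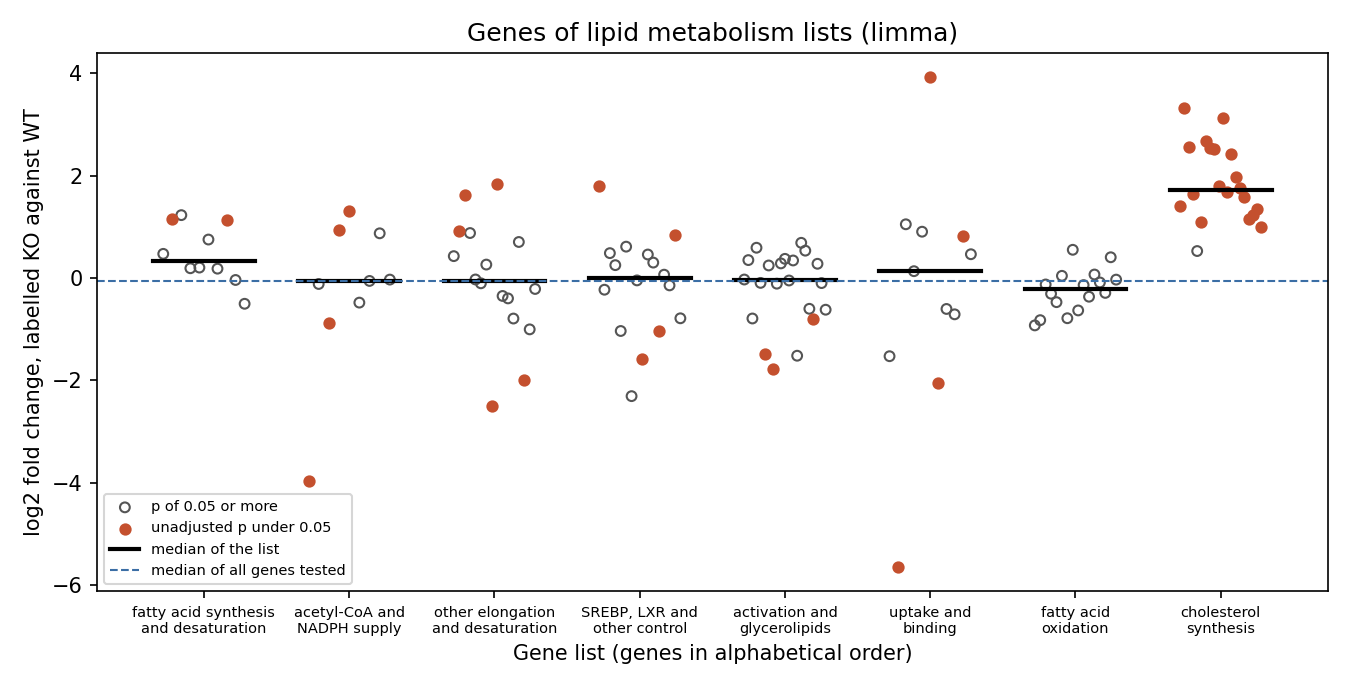
Each point is 1 gene of a list on the x axis, placed on the y axis by its limma log2 fold change of the libraries labelled KO against WT; filled points have an unadjusted p under 0.05, black bars are list medians and the dashed line is the median of all genes tested. The cholesterol synthesis list sits highest with a median of 1.72, the fatty acid synthesis and desaturation genes have 0.34, and the other lists lie between -0.21 and 0.13.

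Levels of the 10 genes were compared per length, in FPKM. Scd2 was the most abundant with 476 FPKM as the mean of the 4 libraries, rank 47 of the 25393 genes. Fads2 followed with 355, Fads1 with 111, Scd1 with 91.4, Acly with 49.5, Me1 with 41.0, Srebf1 with 37.9 and Fasn with 35.9 FPKM. Elovl6 at 6.56 and Acaca at 5.39 FPKM were the lowest. In each of the 4 libraries Scd2 was above Fads2, Fads2 above Fads1, Scd1 above Acly and Fasn above Elovl6. The order of Fads1 and Scd1 held in 3 of 4 libraries. Fads1 had 115 and 93.7 FPKM in WT, where Scd1 had 65.9 and 51.6. Under the KO label Fads1 had 148 and 88.3 FPKM, beside 136 and 113 for Scd1. The order of Elovl6 and Acaca held in 2 of 4 libraries, so these neighbours did not differ beyond their spread. The orders of Acly and Me1, Me1 and Srebf1, and Srebf1 and Fasn also held in 2 of 4, but turned with the label. In both WT libraries Srebf1 was above Me1 and Fasn, and Me1 was above Acly. In both libraries labelled KO Acly was above Me1, and Me1 and Fasn were above Srebf1. The gene model matters here, because the deposited length of Fads2 is 1508 bases and the exons in GENCODE M21 cover 3295. With that length, an alternative chosen after seeing the data, Fads2 had 163 FPKM, still under Scd2, while Fads1 at 79.9 fell behind Scd1 at 90.3.

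**Figure D4:**
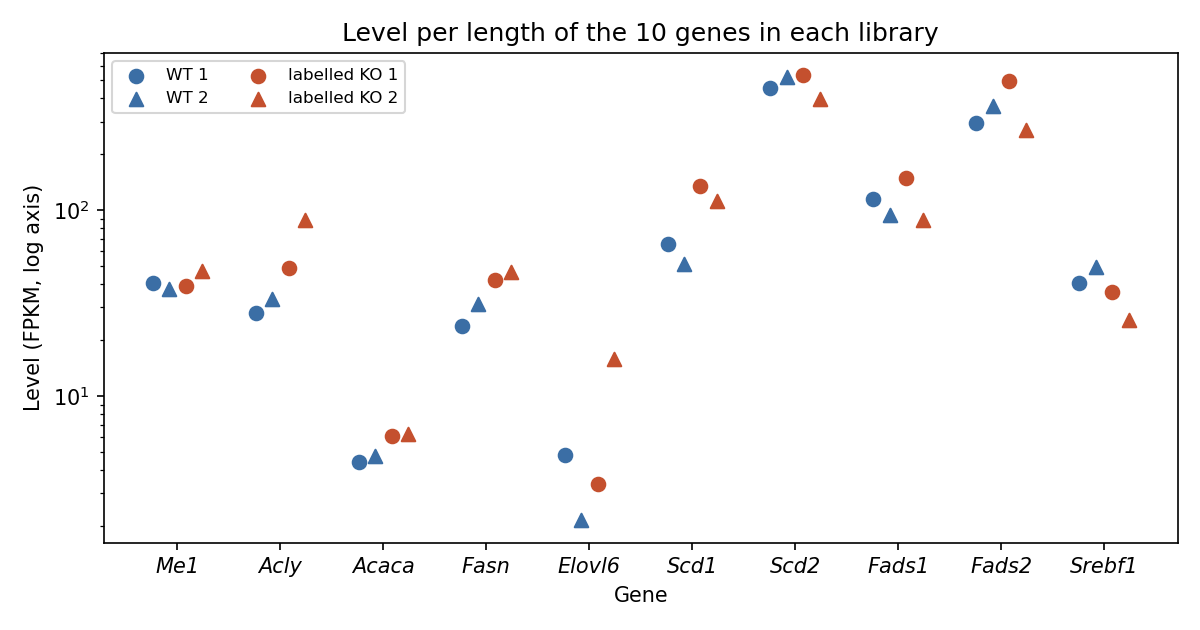
The y axis gives the level of each gene on the x axis in FPKM on a log axis, with 1 point per library (blue, WT; orange, labelled KO; circle, replicate 1; triangle, replicate 2). Scd2 and Fads2 stand highest in every library, and Acaca and Elovl6 lowest.

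Summed over the 10 genes, the level was 1074 and 1190 FPKM in WT, compared with 1486 and 1093 in those labelled KO, so the sums overlapped. Most of this sum came from genes that overlapped between the groups. Scd2 alone made up 42.3% and 44.0% of it in WT versus 35.8% and 36.1% with the KO label.

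Between the libraries labelled KO, replicates differed gene by gene. The second had more Elovl6 (log2 difference 2.11) and Acly (0.72) than the first. It had less Fads2 (-1.01), Fads1 (-0.88), Srebf1 (-0.64) and Scd2 (-0.56). The genes whose log2 values, centred over the 4 libraries, ran closest were Fasn and Acaca, with a root mean square difference of 0.177, then Acaca and Me1 (0.183), Scd2 and Fads2 (0.202) and Fads1 and Fads2 (0.213). Among 12858 other genes with a mean of at least 50 normalized counts, those nearest to the average of the 10 centred profiles were Atp6ap1 (0.0174), AW554918 (0.0271), Strap (0.0284), Med19 (0.0293) and the processed pseudogene Rpl6l (0.0323). Within 0.1 lay 311 genes, or 2.42%, and the median difference of the genes compared was 0.42. Of the 10 genes themselves, Acaca lay nearest to their average (0.0529), then Me1 (0.165), and Elovl6 lay furthest (0.943). Apart from Acaca, the 10 genes thus lay further than 0.1 from their average, and genes near it need not share the pattern of any 1 of them.

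Markers of other cell types and of proliferation were read beside these values, and after adjustment limma and edgeR called 0 of them. Of 53 markers with an adjusted p in DESeq2, those of astrocytes included, it called 7 higher, 5 of these for proliferation, and 12 lower, 10 of these for microglia. Over all genes it called 6.26%. All 14 microglia markers were lower in limma, 11 of them at an unadjusted p under 0.05 (9.18% of all genes), with a summed level of 79.4 and 126 FPKM in WT against 27.2 and 16.9 under the KO label. None of the 14 was at 0 in both libraries labelled KO. The count of 11 was 6 without WT replicate 1 and 2 without WT replicate 2. Among proliferation markers Top2a had the highest mean over all libraries, through 13.2 FPKM in the second library labelled KO. Cdk1 was above it in each of the others. All 8 proliferation markers were higher at an unadjusted p under 0.05 (4.54% of all genes), with sums of 2.07 and 10.8 FPKM in WT, compared with 25.3 and 49.0 in those labelled KO. Their count was 2 without WT replicate 1, 2 without the first library labelled KO and 0 without the second. Of 11 markers of meningeal, mural and endothelial cells, 2 were higher and 2 lower, and Acta2, the most abundant, had 55.6 and 240 FPKM in WT versus 564 and 1395 with the KO label. Of 9 astrocyte markers, 0 were higher and 2 lower, Slc1a2 and Sox9. Oligodendrocyte lineage markers summed to 217 and 324 FPKM in WT against 431 and 244 under the KO label, with 1 of 11 lower, and neuron markers to 20.3 and 23.8 against 29.1 and 30.0, with 2 of 8 tested higher and 1 lower. The part of these cell types and of proliferation in the values of Acly, Scd1, Fasn and the other genes was not tested.

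**Figure D5:**
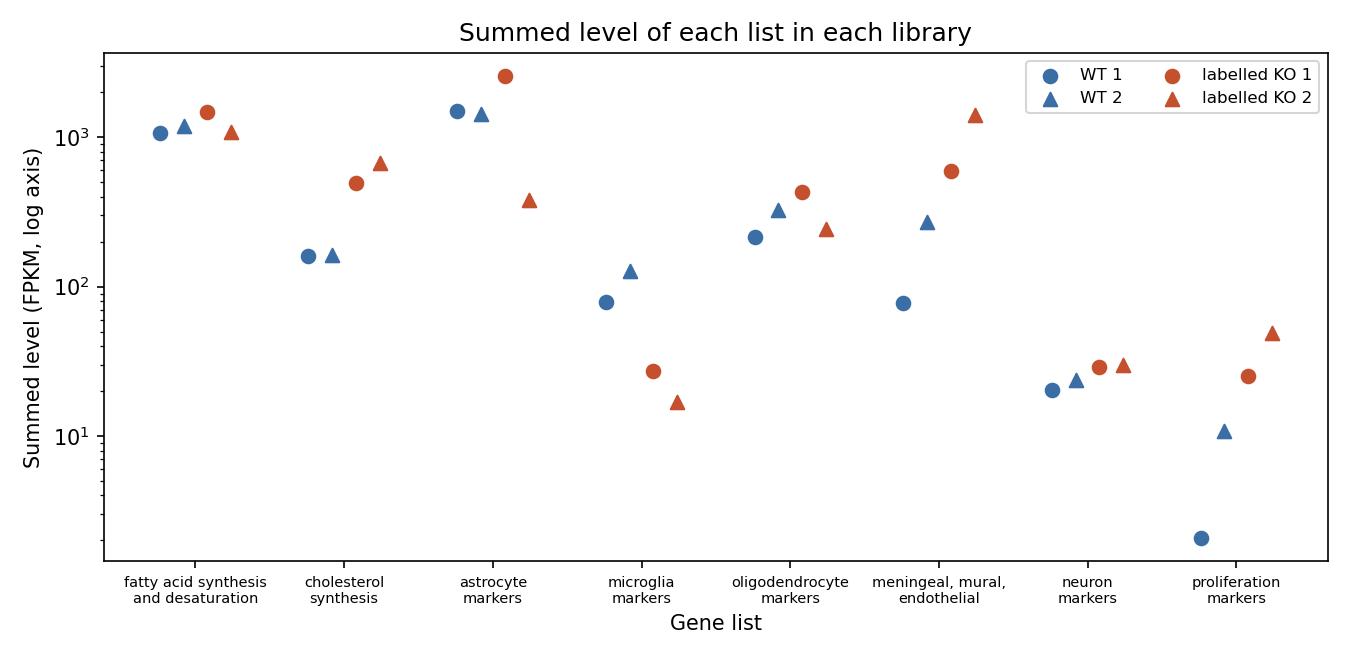
The y axis gives the summed level in FPKM on a log axis for each gene list on the x axis, with 1 point per library (blue, WT; orange, labelled KO; circle, replicate 1; triangle, replicate 2). The fatty acid genes overlap between the groups, cholesterol synthesis and proliferation sums are higher and the microglia sum lower in both libraries labelled KO, and the astrocyte sum is highest in the first library labelled KO and lowest in the second.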

How the data were processed

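RNA-seq values of 4 libraries were analysed, 2 per genotype label. The authors filtered paired-end reads and aligned them to mm10, and the aligner, counting program and annotation release are not given in the sources used here. The deposited signal per gene and library was a read count divided by a size factor. In each library 100% of values were whole multiples of 1 read within 0.02 reads, so whole reads were recovered. The planned test was kept on these normalized counts. The deposited means, log2 fold changes, p-values and adjusted p-values of the authors' own comparison were not used.

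Genotypes were compared with limma 3.58.1 in R 4.3.3 (eBayes with a trend) on log2(normalized count + 1), which understates changes of low genes, and p-values of the 22094 genes whose mean reached 1 were adjusted by Benjamini-Hochberg. On the recovered reads, edgeR 4.0.16 (quasi-likelihood) called 0 genes and DESeq2 1.42.0 called 1088. FPKM was computed from recovered reads, deposited lengths and reads on genes. Scripts were tested on simulated data. Positions of 24654 of 25367 matched identifiers were the same in GENCODE M21, from which coding identity was computed in place of a planned protein alignment, which was not run.

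The members and lists were chosen with earlier results of these data known. Named genes were the 10 members, Tet1, up to 4 genes per list and direction by smallest p at an unadjusted p under 0.05 (otherwise the 2 highest in FPKM), and the 5 genes nearest in pattern. Alternatives were a pseudocount of 0.1, no filter and a mean of at least 10, equal library sums, a replicate block, quantile normalization, untrended eBayes, each library left out in turn, edgeR and DESeq2. Mobp and Cldn5 of the marker lists were not analysed here. Values of some single genes that this rule covers are not reported here.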

Additional observations from a re-analysis of the deposited data

How the results depend on the processing

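With all 4 libraries, 2 of the 10 genes (both higher) had an unadjusted p under 0.05. The count was 1 in eBayes without a trend, and 0 to 3 with a library left out in turn. It was 0 without either WT library, 3 without the first library labelled KO and 1 without the second. Where a label kept 1 library, that library was assumed to vary like the other group. Over all genes, leaving out a library gave 273 to 1820 higher and 862 to 3026 lower, against 1004 and 2028 with all. DESeq2 called 1088 genes and edgeR and limma 0. Quantile normalization gave 1371 higher and 1537 lower genes and shifted the median over all genes by 0.13 on the log2 scale to 0.06, beside a median of 0.21 for the 10 genes. Acly, Acaca, Fasn, Scd1, Elovl6, Me1 and Srebf1 kept their sign in all 14 settings. Scd2 turned positive without WT replicate 2 (0.09) and without the second library labelled KO (0.24), Fads1 negative after quantile normalization (-0.0086) and without the first library labelled KO (-0.25), and Fads2 negative without the latter (-0.30). The cause was not tested. With a library left out in turn, Scd2 ranged from -0.32 to 0.24, Fads1 from -0.25 to 0.63 and Fads2 from -0.30 to 0.71. No label ties same-numbered libraries beyond their number. Across the genes tested, the departures of same-numbered libraries from the average of their label were correlated at -0.084. With 2 libraries per label, the departures of replicate 2 are those of replicate 1 with the sign turned. The value thus rests on 1 independent pair, too few to tell whether same-numbered libraries shared a batch. In the fit with a block for the replicate number, 762 genes were higher and 1821 lower at an unadjusted p under 0.05, with 2 of the 10 genes among the higher. Depth limits precision most for Elovl6 among the 10 genes, with 313 reads in its lowest library.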
